A study of Mus musculus with 4 samples.

Results

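miR-690 (mmu-miR-690) is a mature mouse miRNA, and the reads described here are the chimeric reads of 4 AGO2-CLASH libraries in which the miRNA part was assigned to it. Every row of the deposited chimera lists that names miR-690 was taken, and each distinct read was counted once per library with its deposited number of reads. This gave 2526 chimeric reads, out of 36318 over all miRNAs (6.96%). Distinct reads, counted separately in each library, numbered 2026 for miR-690 and 29067 over all miRNAs. Over the 4 libraries together there were 1953 and 28227 distinct sequences. miR-690 was selected on its number of chimeric reads, the highest of all miRNAs, so its abundance is a description and was not tested. The cells were primary mouse mesangial cells (MMC), the contractile cells of the kidney glomerulus, grown in RPMI medium with foetal bovine serum and left untreated. They came from wild-type (WT) mice of the C57BL/6J strain and from miR-379KO mice of the same strain, which carry a CRISPR-Cas9 nickase deletion in the miR-379 gene. Each genotype had 2 libraries, A and B, and the animals' age was not given in the sources used here. Whether A and B came from separate mice was not stated for these libraries, so the p-values measure the spread between libraries, which may be technical.

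In AGO2-CLASH the cells are cross-linked with UV, AGO2 is immunoprecipitated, and RNAs held together are ligated, so that a sequenced hybrid read joins a miRNA to a piece of the RNA beside it. A miRNA usually recognises a target through its seed, the bases near its 5′ end, and pairing of its middle and 3′ bases can add to this. miR-690 was described in mouse cells as a regulator of Nadk, the NAD kinase gene, and of Cebpa, which encodes a myeloid and adipocyte transcription factor.

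The mature sequence of miR-690 has 22 bases and is shown because the pairing described below fell outside its seed. In the first line the seed (bases 2 to 8) is in capitals, and in the second line bases 9 to 20 are in capitals. Both lines give the RefSeq sequence, 5′ to 3′, at chr16:28599940-28599961 on the minus strand of GRCm38.p6.

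miR-690, seed: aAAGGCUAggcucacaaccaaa

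miR-690, bases 9 to 20: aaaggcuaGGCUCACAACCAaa

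The gene Mir690 (chr16:28599935-28600043, minus strand) lay inside Fgf12, a fibroblast growth factor family gene on the same strand (chr16:28157783-28753243), and overlapped none of its annotated exons. No other of the 1679 mature mouse miRNAs of the RefSeq table shared its seed.

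The target sites below are shown because they are where miR-690 reads aligned in target genes described further on. Each line gives 30 bases of GRCm38 on the strand of the transcript, with the complement of miR-690 bases 9 to 20 in capitals. For Snord65 the capitals mark the complement of bases 7 to 15.

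Zmynd8, chr2:165827799-165827828, minus strand: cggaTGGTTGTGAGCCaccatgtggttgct

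Snhg11, chr2:158384106-158384135, plus strand: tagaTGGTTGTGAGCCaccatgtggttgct

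Fn1, chr1:71604460-71604489, minus strand: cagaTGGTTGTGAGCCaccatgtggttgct

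Smchd1, chr17:71361051-71361080, minus strand: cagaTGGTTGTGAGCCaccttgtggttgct

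Gm12811, chr4:109625590-109625619, plus strand: cagaTGGTTGTGAGCCaccatgtggtactg

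Snord65, chr11:62604557-62604586, plus strand: tggtagtgGTGAGCCTAtggttttctgaag

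The sites of Arcn1, Gas2l3, Gm43980, Gm10499, Qsox1 and RP24-366E11.4 had the same 30 bases as that of Zmynd8, and the site of Echs1 had the same 30 bases as that of Snhg11. Each site was located by a search for the letters in capitals, so the sites could differ only outside them. Leaving Snord65 aside, they differed there in a few bases. The target stretch of Arcn1 held 2 such sites, and the one covered by the most reads was taken.

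The libraries differed in size. The chimeric reads of any miRNA numbered 16324 (A) and 7192 (B) in WT, and 6326 (A) and 6476 (B) in miR-379KO. Reads with a deposited count of 1 made up 88.8% of the distinct miR-690 reads of WT A and 89.5% of those of miR-379KO B, against 64.9% in WT B and 67.2% in miR-379KO A. The same split was present in the reads of other miRNAs (90.9% and 89.0% against 70.7% and 69.9%), and it crossed the genotypes. The deleted miRNA itself had few reads: miR-379-5p had 2 in WT A, 1 in WT B and 0 in each miR-379KO library, which is too few to check the labels. As target genes of any miRNA, 4 of the 6 mesangial markers were listed, with 33 and 23 reads in the WT libraries and 23 and 17 in the miR-379KO libraries. Itga8 and Thy1 were not among them. Of the podocyte markers 3 of 5 were listed, with 5 reads over the 4 libraries, and the 4 endothelial, 4 macrophage and 4 tubule markers had 0 reads. None of the marker genes had a miR-690 read. Among the distinct miR-690 sequences, 62 of 1953 occurred in more than 1 library, as did 623 of 28227 over all miRNAs.

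In WT, miR-690 had 1220 reads (1055 distinct) in library A and 528 (348 distinct) in library B. In miR-379KO it had 351 reads (241 distinct) in library A and 427 (382 distinct) in library B. It ranked 1 among the miRNAs of each library. Per 10000 chimeric reads WT A had 747 (95% Clopper-Pearson interval 707 to 789) and WT B had 734 (675 to 797), while miR-379KO A had 555 (500 to 614) and miR-379KO B had 659 (600 to 723). Both WT libraries lay above both miR-379KO libraries, by less between WT B and miR-379KO B than between the 2 miR-379KO libraries. The mean was 741 ± 9.35 (SD, n = 2) in WT and 607 ± 73.9 (SD, n = 2) in miR-379KO, a difference of 134 (two-sided exact permutation test over the 4 libraries, p = 0.333, the smallest p that 2 against 2 allows). With reads of 1 miRNA and 1 gene only, WT B (492) lay below miR-379KO B (494) and the difference was 71.5 (exact permutation p = 0.667). Without miR-379KO A the difference was 81.4. The Clopper-Pearson intervals cover counting error only, since the reads carry no molecular identifiers.

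**Figure D1:**
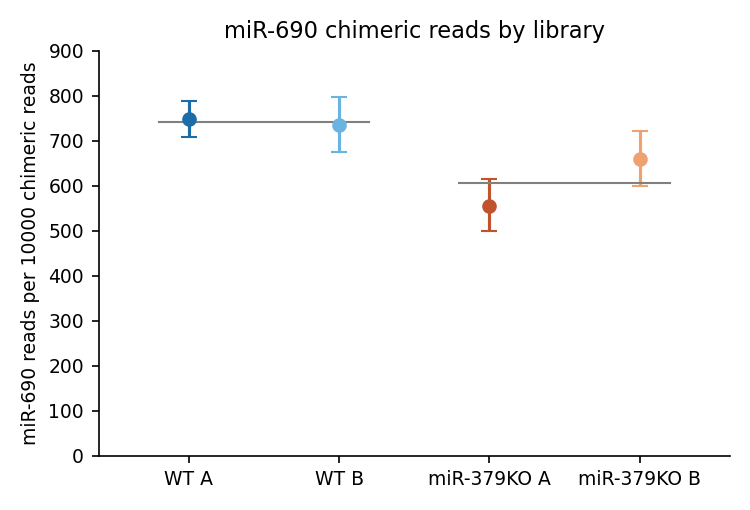
miR-690 reads per 10000 chimeric reads (y axis) in each library (x axis), with 95% Clopper-Pearson intervals as bars and the mean of each genotype as a grey line. The WT libraries were at 747 and 734 and the miR-379KO libraries at 555 and 659.

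In a fit over all miRNAs, edgeR gave miR-690 a log2 fold change of 0.21 for WT over miR-379KO (adjusted p = 0.993). Its SE, computed from the F statistic, was 0.69. None of the 628 miRNAs tested was called (0%), and 27 of them (4.3%) had an unadjusted p under 0.05. The deletion of miR-379 was thus not accompanied by a called change in the chimeric reads of any of the 628 miRNAs tested. miR-379 itself had too few reads to be among them. A change of miR-690 smaller than the spread between libraries was not detectable here.

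The miR-690 part of the reads differed from that of other miRNAs in every library. The whole 22-base miRNA was aligned in 92.5% of the miR-690 reads of WT A, 94.5% of WT B, 94.3% of miR-379KO A and 92.7% of miR-379KO B. In the reads of other miRNAs, the whole miRNA was aligned in 8.22%, 16.5%, 15.03% and 11.7%. The mean alignment was 21.6 to 21.7 nt for miR-690 and 14.5 to 15.2 nt for the others. The alignment held no mismatch or gap in 99.1% to 99.7% of the miR-690 reads, against 50.8% to 54.6% of the other reads. Thus most miR-690 reads held the complete miRNA, whereas most other reads held a shorter stretch.

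The order and strand of the 2 parts were nearly uniform. The miRNA preceded the target in 95% (A) and 89.4% (B) of the miR-690 reads in WT and 92.9% (A) and 94.4% (B) in miR-379KO, against 44.9% to 46.1% of the reads of other miRNAs. The miRNA began at the first base of the read in 91.5%, 84.1%, 89.7% and 91.1% of the miR-690 reads, against 3.55% to 8.06% of the others. The miRNA part was in sense in 99.5% to 100% of the miR-690 reads and the target part in 99.4% to 100%. In the other reads 67.9% to 69.6% of the miRNA parts and 67.5% to 70.8% of the target parts were in sense. Whole alignment, alignment length, freedom from mismatch, read order and the strand of each part were tested, and each of these 6 features was higher for miR-690 in 4 of 4 libraries (exact sign-flip permutation test, two-sided, p = 0.125 for each, the smallest p that 4 libraries allow).

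The join between the 2 parts was short and had a recurrent sequence. In the 2355 reads with the miRNA first and in sense, the median number of bases between the end of the miRNA alignment and the start of the target alignment was 2 (A) and 3 (B) in WT, and 3 (A) and 2 (B) in miR-379KO. Between 1 and 5 bases separated them in 82.9% to 86.5% of these reads, and 0 bases in 0.613% to 4.06%. After the complete miRNA, the next 4 bases of the read were AATA in 72.5% of the reads of WT A, 81.6% of WT B, 84.2% of miR-379KO A and 80.4% of miR-379KO B. In the Mir690 hairpin of RefSeq, the mature sequence is followed by AUAU, and its DNA letters ATAT followed the complete miRNA in 0 of the 2216 reads. Some or all of these 4 bases can belong to the target part, and the genome place that the miRNA part came from was not tested.

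The mature sequence was not unique in the genome. Its 22 bases had 599 exact places in GRCm38, counting both strands, and all 599 were soft-masked, that is, marked as repeated sequence in the reference. One of the 599 was Mir690. The mature sequence followed by AATA had 374 places, 0 of them in Mir690, and followed by ATAT it had 16, of which 1 was Mir690. The letters of the mature sequence alone thus do not tell these places apart. In the transcripts of GENCODE vM21 the mature sequence occurred in 19 of 55341 genes. When the miRNA part was extended by up to 10 bases of the read on each side, the extended sequence was found unbroken in the genome for 76 of the 2026 distinct reads (3.75%). The deposited lists were made from reads that did not align to the genome or to transcripts as a whole.

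The target part paired with the middle and 3′ part of miR-690 and rarely with its seed. In the deposited alignments, bases 9 to 20 were each paired in 93.7% to 99.6% of the reads of WT A, 95.6% to 100% of WT B, 96.0% to 100% of miR-379KO A and 93.7% to 99.3% of miR-379KO B. Bases 2 to 7 were each paired in 2.38% to 9.18%, 1.33% to 3.41%, 0% to 1.42% and 3.04% to 8.67%. In the reads of other miRNAs, bases 2 to 7 were each paired in 68.6% to 85.6% and bases 9 to 20 in 29.6% to 70.0%. The 2 profiles were thus opposite in all 4 libraries. Averaged over bases 2 to 7, WT A (6.38%) and miR-379KO B (6.01%) lay above WT B (2.34%) and miR-379KO A (0.712%), which is the split by reads of count 1 and not the split by genotype. The reads of Snord65, described below, also lay in WT A (47) and miR-379KO B (14) only. The part of either in this value was not tested. Base 1 was unpaired in every alignment counted, for all miRNAs.

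**Figure D2:**
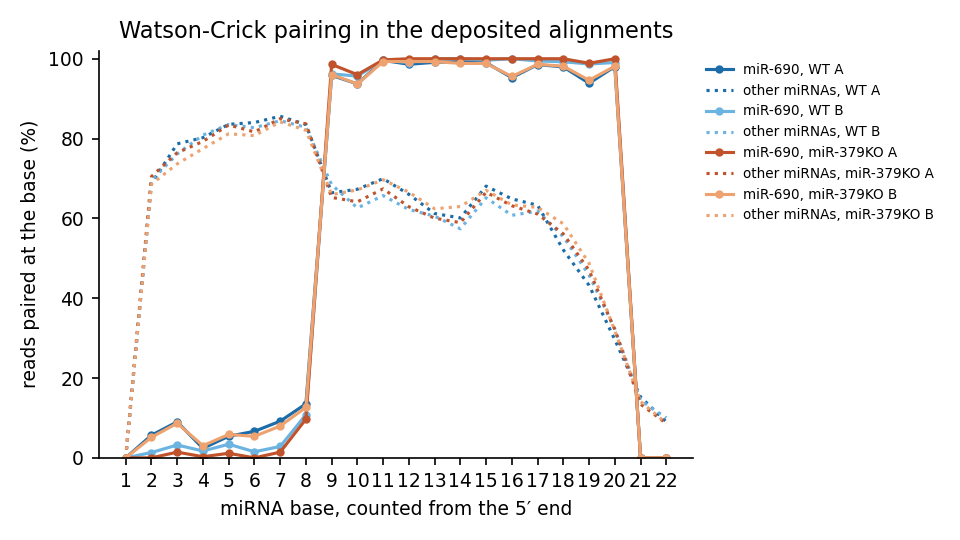
Share of reads with a Watson-Crick pair in the deposited alignment (y axis, percent) at each miRNA base counted from the 5′ end (x axis), for miR-690 (solid lines) and all other miRNAs (dotted lines) in each library. For miR-690 the share was over 93% at bases 9 to 20 and under 10% at bases 2 to 7.

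The longest unbroken pairing was 12 bases in the median read of each library, against 6 for other miRNAs. Over the 4 libraries, 1778 of the 2526 reads (70.4%) had exactly the run from base 9 to base 20. The next most frequent runs were bases 10 to 20 in 160 reads (6.33%) and bases 8 to 20 in 83 reads (3.29%). The run from base 7 to base 15, found in 61 reads (2.41%), was that of Snord65.

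The same was seen in the letters of the target part without the deposited alignment. The complement of bases 9 to 20, TGGTTGTGAGCC, was present in 73.4% (A) and 75.8% (B) of the target parts in WT, and 77.8% (A) and 73.1% (B) in miR-379KO. In the target parts of other miRNAs these letters of miR-690 were present in 0% to 0.0503%, which does not measure the pairing of those miRNAs. The run from base 9 to base 20 was chosen after its values were seen. An unbroken pairing of at least 12 bases with the read's own miRNA was found in 73.3% to 78.1% of the miR-690 reads. In the reads of other miRNAs it was found in 0.949% to 2.30%. The complement of bases 2 to 7, AGCCTT, was present in 3.61%, 6.06%, 6.55% and 3.28% of the miR-690 target parts. For other miRNAs, the complement of their own bases 2 to 7 was present in 24.6% to 28.0%. The seed match was less frequent for miR-690 in 4 of 4 libraries, by a mean of 22.2 percentage points (−22.2, lowest −24.4, highest −20.9, exact sign-flip permutation test, two-sided, p = 0.125, the smallest that 4 libraries allow).

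The complement of bases 9 to 20 began at base 7 of the target part in the median read of WT A and miR-379KO B and at base 6 in the other two libraries, so that the 2 complementary stretches lay close to each other in the read. Reads with the target first were few (166 reads) and held the same 12 bases in 78.9% of cases, against 74.2% of the 2360 reads with the miRNA first. The deposited minimum free energy (MFE, given without a unit) had a median of −23.5 in each of the 4 libraries, and for other miRNAs it lay between −25.1 and −24.0. The deposited alignment score had a median of 60 for miR-690 in each library and 140 to 142 for other miRNAs. Hence the MFE of miR-690 pairs was near that of the others, higher by 0.46 to 1.58 in the 4 libraries, while the score was far lower. Among miRNA alignments of at least 16 nt, the MFE of miR-690 was higher by a mean of 3.015.

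The target parts came from repeated sequence. The central 30 bases of the target part were searched in GRCm38 without mismatch, on both strands, for the 1994 distinct reads whose target part had at least 30 bases, and 1975 of them (99.0%) were found. The median number of places was 55 (A) and 41 (B) in WT, and 74 (A) and 57 (B) in miR-379KO. A single place was found for 20.8%, 22.4%, 20.9% and 22.99% of the reads found, and 100 or more places for 43.7% to 46.8%. The largest number was 32802 places. Of the reads found, 95.6%, 98.5%, 99.6% and 95.2% lay mostly in soft-masked sequence. Among reads that held the complement of bases 9 to 20, 99.9% were soft-masked, with a median of 228.5 places, and among the others 86.4%, with a median of 2 places.

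**Figure D3:**
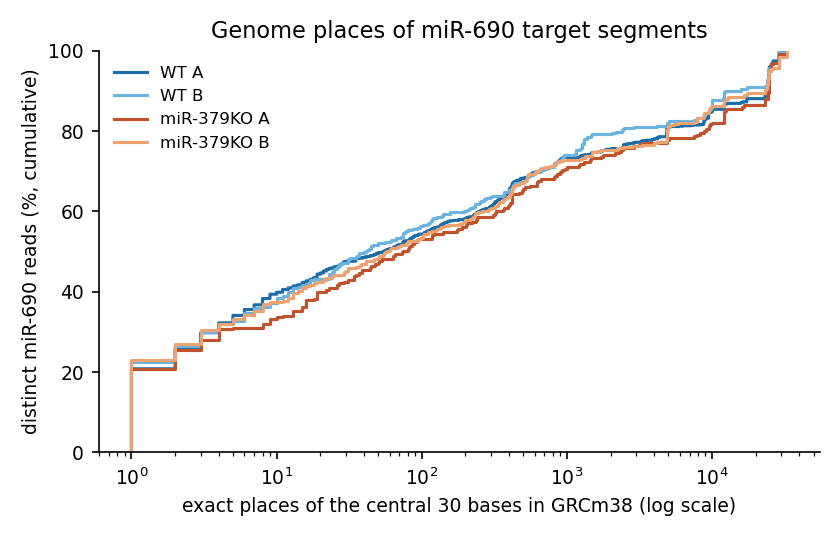
Cumulative share of distinct miR-690 reads (y axis, percent) by the number of exact genome places of the central 30 bases of the target part (x axis, log scale), 1 line per library. Between 20.8% and 22.99% of the reads had a single place and 43.7% to 46.8% had 100 or more.

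The 12-base run itself, searched on both strands, had 70053 places in GRCm38, of which 69819 (99.7%) were wholly soft-masked. In the GENCODE vM21 transcripts it was present in 881 of 55341 genes (1.59%) in the sense of the transcript, and its complement in 882 (1.59%). Of the 676 miR-690 target genes that the annotation holds, 570 (84.3%) contained it in sense and 58 (8.58%) in antisense. The target genes were assigned to reads by these very letters, so this is a description of the reads.

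The reads were listed with 699 genes and 834 transcripts. Of the genes, 185 were listed in all 4 libraries, 242 had at least 10 reads and 152 had 1 read. A read was listed with 2.89 genes on average and with up to 67, and 58.8% of the miR-690 reads were listed with a single gene, against 83.8% of the reads of other miRNAs. The 10 most frequent genes together held 265 reads, 10.5% of all miR-690 reads. The reads were therefore spread over many genes, and the top of the list was shared by reads that could not be told apart. Of the 186 distinct reads listed with any of the 10, 93 were listed with at least 2 of them.

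Zmynd8, which encodes a chromatin reader protein, had 38 (A) and 14 (B) miR-690 reads in WT, and 16 (A) and 18 (B) in miR-379KO. All were also listed with another gene. Its site began at base 1873 of a transcript of 2515 bases whose coding sequence ended at base 1560, in the 3′ untranslated region. Gas2l3, which encodes a protein that links actin and microtubules, had 38, 13, 15 and 19 reads in the same order, with a site in the 3′ untranslated region of a transcript of 6748 bases. Of the 66 distinct reads of Zmynd8 and the 65 of Gas2l3, 64 were the same (96.97% and 98.5%). These 2 genes thus did not give separate evidence.

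Arcn1, a coatomer subunit gene of Golgi transport, had 40, 12, 15 and 18 reads in a transcript with a retained intron. Gm43980 had 38, 15, 15 and 17 reads and RP24-366E11.4 had 38, 13, 15 and 18, both in noncoding transcripts. Arcn1 shared 62 of its 65 distinct reads with Zmynd8 (95.4%), Gm43980 57 of 65 (87.7%) and RP24-366E11.4 64 of 64 (100%). Per 10000 chimeric reads Zmynd8 had 23.3 (A) and 19.5 (B) in WT, and 25.3 (A) and 27.8 (B) in miR-379KO. Both WT libraries thus lay below both miR-379KO libraries, and so they did for Gas2l3, Gm43980 and RP24-366E11.4, which share these reads. The genotypes overlapped for Arcn1. For Gas2l3, Gm43980 and RP24-366E11.4 the gap was narrow, with 23.3 in WT A against 23.7 in miR-379KO A. With 2 against 2 libraries, the exact permutation test cannot give a p below 0.333. How many of the other target genes were separated in this way was not counted. The separation of these genes thus has no background to be read against, and it is given as a description only. None of these pairs was called in the test between genotypes given below. Gm10499, annotated as a pseudogene, had 35, 7, 12 and 11 reads, and Qsox1, which encodes a disulfide-forming oxidase of the secretory pathway, had 27, 6, 13 and 9. They shared 41 of 48 and 26 of 42 distinct reads with Zmynd8 (85.4% and 61.9%).

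Snhg11, a small nucleolar RNA host gene, had 28 (A) and 18 (B) reads in WT, and 9 (A) and 14 (B) in miR-379KO. Echs1, which encodes an enzyme of mitochondrial fatty acid oxidation, had 28, 17, 7 and 13 reads in a transcript with a retained intron. Neither shared a read with Zmynd8. They shared 24 distinct reads with each other, out of 37 for Snhg11 (64.9%) and 38 for Echs1 (63.2%). Per 10000 chimeric reads, Snhg11 had 17.2 (A) and 25.03 (B) in WT, and 14.2 (A) and 21.6 (B) in miR-379KO, so the genotypes overlapped.

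**Figure D4:**
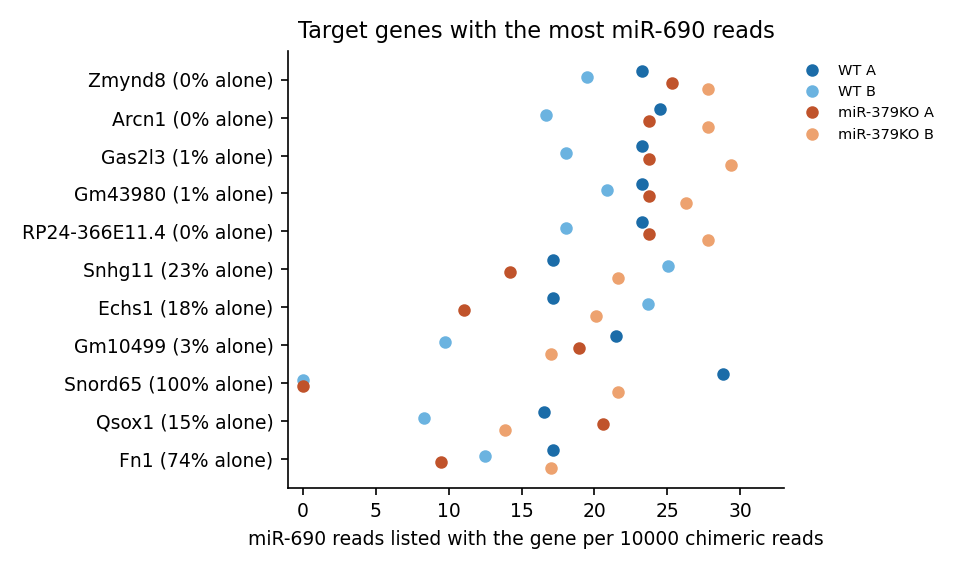
miR-690 reads listed with a gene per 10000 chimeric reads (x axis) for the 10 most frequent target genes and Fn1 (y axis, with the share of the reads listed with that gene alone), 1 point per library. Snord65 was at 28.8 in WT A, 21.6 in miR-379KO B and 0 in the other two libraries.

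Snord65, a small nucleolar RNA of the box C/D kind that guides the modification of ribosomal RNA, stood apart from the others. It had 47 (A) and 0 (B) reads in WT, and 0 (A) and 14 (B) in miR-379KO, and all 61 were listed with it alone. A count of 0 allows up to 4.17 per 10000 in WT B and up to 4.74 in miR-379KO A. The libraries with its reads were the 2 in which most miR-690 reads had a count of 1, and the part of that split was not tested. The complement of bases 9 to 20 was present in 0% of its reads, and the run from base 7 to base 15 in 61 of 61. The gene is annotated with a length of 72 bases (chr11:62604515-62604586, plus strand).

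Fn1 was the only one of the 16 extracellular matrix and TGF-beta genes listed as a target of any miRNA that had miR-690 reads, and it is named for that reason. It encodes fibronectin, a matrix protein that mesangial cells make. It had 28 (A) and 9 (B) miR-690 reads in WT, and 6 (A) and 11 (B) in miR-379KO, and 40 of these 54 were listed with Fn1 alone. They aligned from base 2327 to base 2469 of a retained-intron transcript of 2778 bases. Other miRNAs had 429 Fn1 reads, and miR-690 held 11.2% of the Fn1 reads of all miRNAs. The 16 genes together took 1.70% to 2.58% of the miR-690 reads in the 4 libraries, against 2.62% to 3.23% of the other reads. The share of this group was thus not higher for miR-690. Per 10000 chimeric reads Fn1 had 17.2 (A) and 12.5 (B) in WT, and 9.48 (A) and 16.99 (B) in miR-379KO, and the genotypes overlapped.

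Ribosomal RNA-like, mitochondrially encoded, and contractile and cytoskeletal genes had no miR-690 read. Ribosomal RNA-like genes took 19.4% to 22.7% of the reads of other miRNAs in the 4 libraries and 0 of 2526 reads of miR-690, which allows a share of up to 0.119%. Mitochondrially encoded genes took 0.465% to 1.28% of the other reads and 0 of miR-690. The 13 contractile and cytoskeletal genes, which include Acta2 and Vim, took 0.754% to 1.60% of the other reads and 0 of miR-690. Ribosomal protein genes had 6 miR-690 reads, which were listed with Rpl27a, Rpl3 and Rpl3-ps1. Small nucleolar RNAs had 62 miR-690 reads (2.45%), of which 61 were those of Snord65 and 1 was listed with Snora9, and took 3.36% of the other reads. Of all miR-690 reads, 76.3% to 80.1% of the miR-690 reads were listed with a protein-coding gene, against 44.0% to 52.6% of the other reads. A read listed with several genes has more chances to meet a protein-coding one. Among reads listed with a single gene the shares were 62.5% to 66.8% for miR-690 and 47.3% to 54.9% for the others.

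Within these genes the target parts seldom lay in the coding sequence. Each read was divided equally among the lines it was listed on, and positions were compared with GENCODE vM21, which held 812 of the 834 transcripts (97.4%). Transcripts with a retained intron held 42.8% (A) and 43.2% (B) of the miR-690 reads in WT and 45.3% (A) and 39.4% (B) in miR-379KO, against 8.21% to 12.5% of the reads of other miRNAs. The coding sequence held 0.325% to 1.31%, against 10.98% to 13.2%. The 3′ untranslated region held 17.0% to 19.3%, against 14.6% to 19.5%, and here the ranges overlapped. Thus retained-intron transcripts were the most frequent class for miR-690 target parts in every library. Whether the target part lay in the intron or in an exon of these transcripts was not determined.

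**Figure D5:**
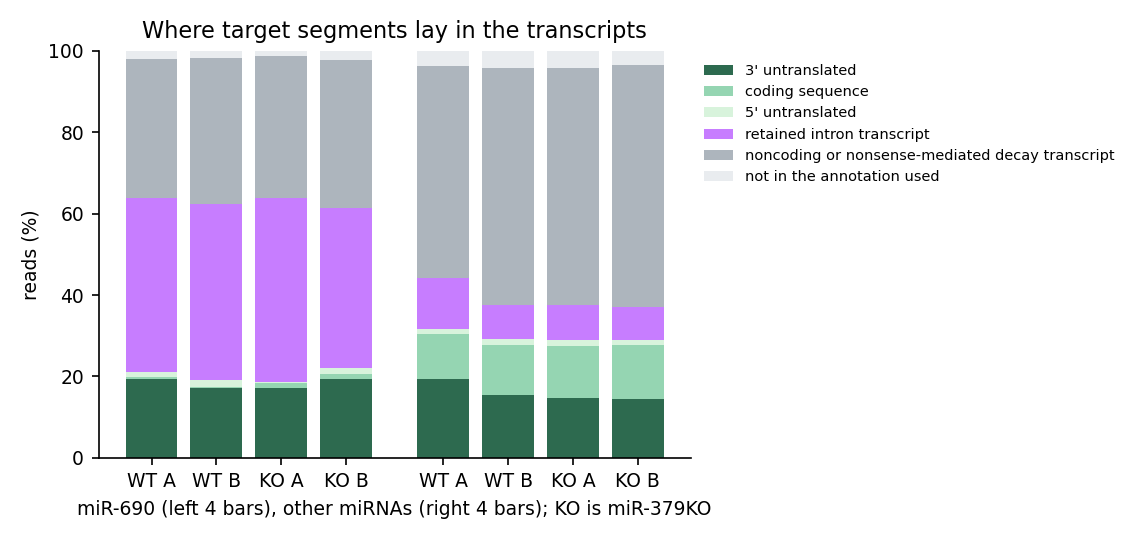
Share of reads (y axis, percent) by the place of the target part in the transcript, for miR-690 and for all other miRNAs in each library (x axis). Retained-intron transcripts held 39.4% to 45.3% of the miR-690 reads and 8.21% to 12.5% of the others.

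Of the 242 miR-690 pairs with at least 10 reads, 0 were called between the genotypes, as were 0 of all 632 pairs of a miRNA and a gene tested (0%). At an unadjusted p under 0.05 there were 3 miR-690 pairs, all higher in WT, and 16 of all pairs (2.53%). The 3 were Kctd3, a potassium channel tetramerisation domain gene, Smchd1, which acts in X inactivation, and Snx10, a sorting nexin gene. Kctd3 had 7 reads in WT A, 10 in WT B and 0 in both miR-379KO libraries. Smchd1 had 9, 8, 0 and 0 reads, and Snx10 had 5, 7, 0 and 0.

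These 3 genes shared no distinct reads with each other, and the WT libraries did not overlap with the miR-379KO libraries. With miR-379KO set to the floor of 3 reads over its 2 libraries, the pooled WT rate was 3.08-fold higher for Kctd3 and Smchd1. For Snx10 it was 2.18-fold higher. These ratios leave out the spread between libraries. The SE of the log2 fold change, computed from the edgeR F statistic, was 2.15 to 2.41, and it is approximate where a genotype had 0 reads. The 3 genes were chosen by the smallest p of 242 pairs, so counts of 0 in miR-379KO are part of that choice. The sign of the log2 fold change pointed to WT in 188 of the 242 pairs and to miR-379KO in 54. The table of all 632 pairs also leaned to WT, with a median log2 fold change of 0.263 against 0.545 for the miR-690 pairs. Pairs entered by their reads summed over the 4 libraries, of which WT A was the largest, and many pairs shared reads. The split of signs was therefore not tested and is not a result about genotype. Listed with the gene alone were 1 of 17 reads for Kctd3, 6 of 17 for Smchd1 and 4 of 12 for Snx10. The adjusted p in edgeR was 0.978 for each of the 3 genes, so none passed the test. The 3 pairs with the smallest p among those higher in miR-379KO were Gm12811 (1, 4, 6 and 4 reads), Supt7l, a SAGA complex gene (4, 3, 4 and 6 reads), and Ppp4r2, a protein phosphatase 4 subunit gene (0, 3, 5 and 2 reads), each with an adjusted p of 0.978 in edgeR.

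The read features did not separate the genotypes beyond the spread between libraries. For 9 features the 2 genotypes overlapped, and the exact permutation p was 0.667 or 1. The share of Zmynd8, the gene with the most miR-690 reads over the 4 libraries, which was 3.11% (A) and 2.65% (B) in WT and 4.56% (A) and 4.22% (B) in miR-379KO, did not overlap between the genotypes (two-sided exact permutation test, p = 0.333, the smallest possible). Zmynd8 was not the most frequent gene in every library: Snord65 was in WT A with 47 reads, Gm45873 in WT B with 22 and Gas2l3 in miR-379KO B with 19. Among reads listed with a single gene Zmynd8 had none, so the difference was 0.

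Nadk and Cebpa had 0 miR-690 reads in each of the 4 libraries. Nadk had 1 read with any miRNA and Cebpa had 0, so the lists could not show pairing of miR-690 with either gene at this depth.

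The miRNAs whose reads were spread over target genes most like those of miR-690 were sought among 57 others with at least 100 reads, by summing over genes the smaller of the 2 shares of reads, pooled over the 4 libraries. miR-3473b came first with an overlap of 10.4%, with 152 genes shared with miR-690 out of its 283. miR-29b-2-5p had an overlap of 7.47% with 35 of 71 genes shared, and miR-1195 one of 6.74% with 99 of 882. None of the 3 had the seed of miR-690, and most of the spread was not shared with any of them.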

How the data were processed

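Libraries were grouped by genotype from the sample labels. The authors merged read pairs with pear, removed reads that Bowtie2 2.1.0 aligned to GRCm38.p5 or to GENCODE transcripts, and searched the rest with blastn on both strands against miRBase and the transcripts. The deposited counts are whole numbers of identical reads without normalization. Positions were deposited by the authors with a start above the end for antisense. The deposited score and MFE are as given; the tool behind them is not given in the sources used here.

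The members and lists were chosen with earlier results of these data known. Reads were counted once per miRNA and gene; features used the line with the longest miRNA alignment. Counts with at least 10 reads over the 4 libraries were tested with edgeR 4.0.16 (R 4.3.3; quasi-likelihood, TMM, Benjamini-Hochberg, threshold 0.05). The SE printed for edgeR is the size of the log2 fold change divided by the square root of the F statistic. DESeq2 1.42.0 was an alternative. Single values were tested by exact permutation, and intervals are 95% Clopper-Pearson (scipy 1.17.1). The floor was 3 counts. The edgeR tests and the genome search were tested on simulated data, and the exact tests on short made sets of values. The counts simulated for edgeR had a smaller dispersion than the fitted one (0.221 over miRNAs and 0.452 over pairs). They therefore do not measure the power in these data. Genome places were searched in GRCm38.p6, which has the same chromosome sequences as GRCm38.p5. Python 3.11.15, pandas 2.3.3, numpy 2.4.6 and matplotlib 3.10.9 were used. Chimeric reads per library ranged from 6326 to 16324.

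The genes named were the 10 with the most miR-690 reads, every called pair, the 3 pairs of smallest p in each direction, Nadk, Cebpa and the 3 most similar miRNAs; Fn1 and the ribosomal protein genes were named from their group counts after these were seen. Alternatives were a replicate block, no minimum count, no TMM, each library left out in turn, every distinct read counted once, miRNA parts of 16 nt or more, no mismatch, sense orientation, reads listed with 1 miRNA and 1 gene, seed positions 2 to 8 and target parts extended by 25 nt.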

Additional observations from a re-analysis of the deposited data

How the results depend on the processing

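Of 208 recomputed values, 158 kept their direction and their side of the threshold, 23 were 0 as reported and 0 again (the median MFE and the count of called pairs), 25 changed direction and 2 went to 0. These 2 were the Zmynd8 share with reads of 1 miRNA and 1 gene and the miRNA in sense with alignments of at least 16 nt. The share of miR-690 reads per 10000 (difference 134) ranged from 81.4 to 185.9 when 1 library was left out, and otherwise from 71.5 with reads of 1 miRNA and 1 gene to 472.1 with alignments of at least 16 nt. All differences between miR-690 and other miRNAs kept their direction under every alternative run, but their sizes changed. With miRNA alignments of at least 16 nt, the miRNA in sense went from 30.58 to 8.047 points and the target in sense from 30.07 to 14.33. The whole miRNA went from 80.67 to 52.39 points and the alignment from 6.696 to 2.345 nt. The seed match went from −22.17 to −42.65 points, the miRNA before the target from 47.43 to 56.76 and the MFE from 1.087 to 3.015. The log2 fold change of miR-690 for WT over miR-379KO ranged from 0.09 to 0.58 and was never called, and no alternative called a miR-690 pair. With the replicate block (library letters) the log2 fold change was 0.21 and 0 miR-690 pairs were called. The deviations of libraries with the same letter correlated at −0.0632 over miRNAs and −0.142 over pairs. With 2 libraries per genotype this cannot decide whether libraries of the same letter were prepared as pairs, which was not stated. With crossed letters, chosen after seeing the data, 0 miR-690 pairs were called. Over all miRNAs, the fits called 0 except for 1 of 323 without WT A. Over all pairs they called 0 except for 7 of 514 without WT B and 1 of 380 with sense orientation. The miR-690 pairs at an unadjusted p under 0.05 numbered 3 as reported, 1 with the replicate block and with DESeq2, 0 with crossed letters and with reads of 1 miRNA and 1 gene, 7 of 699 without a minimum count, and 2 to 8 when 1 library was left out, where the lone library of a genotype was assumed to vary like those of the other.

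The 25 values that changed direction were all differences between genotypes within the spread of the libraries, and the cause was not tested. Leaving out 1 library gave, for WT minus miR-379KO, −4.235 to 1.372 points for the miRNA before the target, −0.353 to 0.115 for the miRNA in sense, −0.382 to 0.188 for the target in sense, −0.98 to 0.987 for the whole miRNA, −0.0213 to 0.0534 nt for the alignment, −0.355 to 0.297 for no mismatch, −1.719 to 1.555 for the seed match and −3.178 to 1.532 for the complement of bases 9 to 20. Counting each distinct read once gave −0.651 for the whole miRNA, −0.0389 nt and 0.718 for the seed match. Alignments of at least 16 nt gave 0.0537 for no mismatch. Sense orientation gave −0.13 for the whole miRNA and 0.0518 for no mismatch. Reads with 1 miRNA and 1 gene gave 0.00919 for the miRNA in sense, −0.4385 for the whole miRNA, −0.016 nt and 0.171 for no mismatch. Seed positions 2 to 8 gave 0.147. With 2 libraries per genotype no single value can fall below p = 0.333 in the exact test.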
